A study of Mus musculus with 6 samples.

Results

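The genes described here make, sense or break down prostaglandins: the cyclooxygenases Ptgs1 and Ptgs2, the synthases Ptges, Ptges2, Ptges3, Ptgis and Ptgds, the receptor Ptger4, and the enzymes Ptgr1 and Hpgd. These 10 genes were taken by name from the 22942 genes in the tables, and each was represented by its RefSeq transcript with the highest mean value. Only Ptger4 had more than 1 transcript. RNA had been sequenced from C3H-10T1/2, an established line of mouse mesenchymal cells, on day 6 of differentiation towards brown adipocytes. DMSO alone was given to 3 cultures, and 4 uM of 611 (Cpd A), which inhibits the histone demethylase LSD1, to another 3, with 1 library from each. All 6 libraries shared the same differentiation medium, and parts of it act on this pathway. For 72 h it held 125 uM indomethacin, an inhibitor of the cyclooxygenase enzymes, with 0.5 mM isobutylmethylxanthine, which slows the breakdown of cAMP, and 1 uM dexamethasone, a glucocorticoid. Insulin at 20 nM, T3 at 1 nM and rosiglitazone at 1 uM were present throughout. One label places the start of treatment at seeding and another 12 h later, with induction after a further 48 h. The series' design text calls the libraries biological triplicates, so the p-values rest on the variation among 3 cultures in each group.

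Prostaglandins are short-lived lipid signals. A phospholipase frees arachidonic acid from membrane lipids, a cyclooxygenase turns it into prostaglandin H2, and a terminal synthase then sets the product: E2, I2 (prostacyclin), D2, F2 alpha or thromboxane. The products leave the cell and act on G protein-coupled receptors, several of which raise or lower cAMP. In the fat lineage prostacyclin is known to favour adipocyte formation, and E2 and F2 alpha can restrain it. Transcript levels say nothing of enzyme activity, which indomethacin limits at the protein while it is present.

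Levels are in RPKM, which divides reads by transcript length and by library size, so they can be compared between genes. Between libraries a difference in scale remained. Median-of-ratios size factors were 0.942 to 0.962 in the DMSO libraries and 1.04 to 1.06 in the 611 libraries. Library totals recovered from the steps between low values lay between 3.89e+07 and 4.12e+07. Of 13829 genes tested with limma on log2(RPKM + 1), 41.6% were called higher with 611 and 17.7% lower at a Benjamini-Hochberg adjusted p below 0.05. All genes together had a median log2 fold change of 0.10, which median-of-ratios scaling lowered by 0.11. After that scaling 28.5% were called higher and 28.6% lower. The cells held fat cell transcripts in both groups, but the defining transcript of brown adipocytes, that of the uncoupling protein Ucp1, had a value of 0 in each library. The 6 brown adipocyte markers summed to 81.7 to 107 RPKM with DMSO and 14.8 to 17.8 with 611. The 4 that could be tested, Cidea, Cox8b, Cox7a1 and Prdm16, were called lower. Prdm16 was low, at 0.354, 0.316 and 0.342 RPKM with DMSO and 0.0813, 0.0662 and 0.165 with 611. It met the minimum for testing, 0.1 RPKM in at least 3 libraries, through the DMSO libraries, where it was high, which limits its call. Cidea fell 6.55-fold from 61.7 ± 13.3 to 9.42 ± 0.840 RPKM, and Cox8b fell 8.56-fold from 28.1 ± 1.07 to 3.28 ± 0.968. Of 8 fibroblast and progenitor markers 7 were called higher with 611, and all 7 tested adipocyte markers were called lower.

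Among the 10 prostaglandin genes, Ptgs1, Ptgis, Ptgr1 and, by a narrow margin, Ptgs2 rose with 611, and Ptges2 fell. Ptges and Ptges3 did not pass the test. Ptgds, Ptger4 and Hpgd were under the minimum set for testing, 0.1 RPKM in 3 or more libraries, and were not tested. The 7 tested genes were above 0.1 RPKM in all 6 libraries, so none entered through 1 group alone. The 4 higher and 1 lower calls among 7 tested genes stand beside 41.6% and 17.7% of all genes. Their median log2 fold change was 0.18, beside 0.10 for all genes tested. In 4 of the 7 every 611 library lay above every DMSO library, against 45.8% of all tested genes, and in 1 of the 7 every 611 library lay below, against 20.4%.

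**Figure D1:**
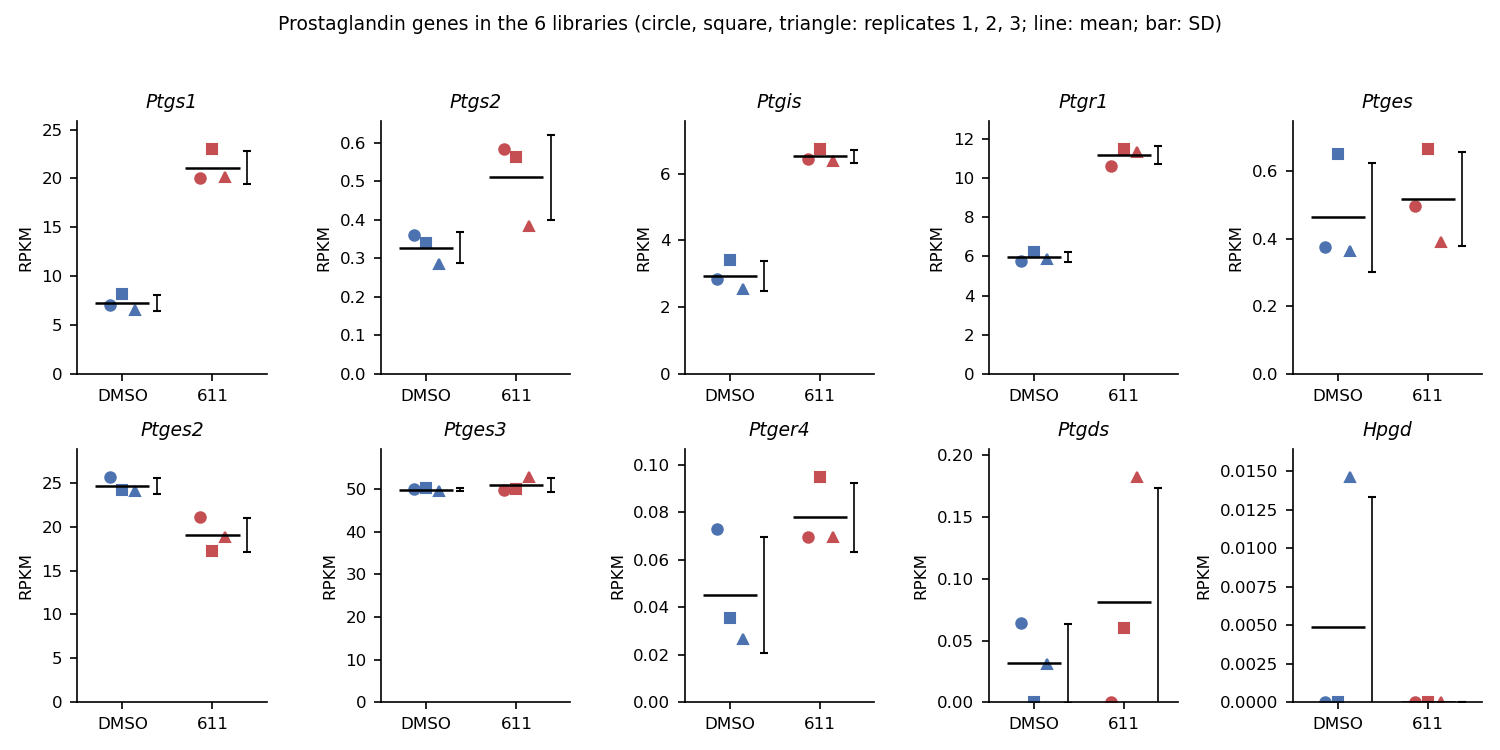
RPKM (vertical axes, linear, each panel on its own scale from 0) of the 10 prostaglandin genes in the 3 DMSO (blue) and 3 611 (red) libraries, with the group mean as a line and the SD as a bar, cut at 0 in the panels of Ptgds and Hpgd. Ptgs1 runs from 6.55 to 8.21 with DMSO and from 20.1 to 23.05 with 611, while the groups overlap for Ptges, Ptges3, Ptger4, Ptgds and Hpgd.

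Ptgs1 encodes cyclooxygenase 1, the form that most tissues make at a steady level. Its level was 7.05, 8.21 and 6.55 RPKM in DMSO replicates 1, 2 and 3, and 20.1, 23.05 and 20.2 RPKM in 611 replicates 1, 2 and 3. All 3 libraries with 611 were far above the 3 with DMSO, and replicate 2 was the highest in each group. The mean rose 2.901-fold, from 7.27 ± 0.849 to 21.1 ± 1.70 RPKM (SD, n = 3 per group). On the log2(RPKM + 1) scale the difference was 1.42 ± 0.0816 (SE; limma adjusted p = 2.0e-06), and 1.28 after median-of-ratios scaling. On this scale, which understates the change of low genes, 106 of 13829 tested genes (0.767%), Ptgs1 included, rose by at least as much. The values correspond to about 748 to 934 reads per DMSO library and 2344 to 2719 reads per 611 library.

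Ptgs2 encodes cyclooxygenase 2, the form that cytokines, growth factors and other stimuli induce and glucocorticoids repress. It was at 0.360, 0.340 and 0.285 RPKM with DMSO and at 0.585, 0.562 and 0.383 RPKM with 611. The groups did not overlap, but the third 611 library lay close to the highest DMSO library. The mean was 0.328 ± 0.0392 RPKM with DMSO and 0.510 ± 0.110 with 611, 1.55-fold higher, for a log2 difference of 0.18 ± 0.0687 (limma adjusted p = 0.0461). That call ended after median-of-ratios scaling (limma adjusted p = 0.114), with a pseudocount of 0.1 (0.0519), and when any library other than 611 replicate 3 was left out (0.0693 to 0.139). Between 47 and 99 reads stood behind each value. Ptgs1 exceeded Ptgs2 in every library: the ratio of their RPKM was 19.6, 24.1 and 23.03 with DMSO and 34.3, 41.0 and 52.6 with 611. This ratio is formed within a library, so no scaling enters it, and its groups did not overlap.

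The promoters of the cyclooxygenase genes are shown because the genes differed in level and in the size of their change. Each window runs from 250 bases before to 50 bases after the start site, in RefSeq's table for GRCm38.p6. Capitals mark matches, on either strand, to 6 short motifs. These are TATAAA, an element that places the polymerase, TGACG, found in cAMP response elements, TTGCNNAA, bound by C/EBP factors, and GGGCGG, the box that Sp factors bind. The others are AGAACA, one arm of the glucocorticoid response element, and AGGTCA, one arm of sites for many nuclear receptors. The Ptgs1 window lies at chr2:36230176-36230475 on the plus strand and the Ptgs2 window at chr1:150099781-150100080 on the plus strand.
Ptgs1: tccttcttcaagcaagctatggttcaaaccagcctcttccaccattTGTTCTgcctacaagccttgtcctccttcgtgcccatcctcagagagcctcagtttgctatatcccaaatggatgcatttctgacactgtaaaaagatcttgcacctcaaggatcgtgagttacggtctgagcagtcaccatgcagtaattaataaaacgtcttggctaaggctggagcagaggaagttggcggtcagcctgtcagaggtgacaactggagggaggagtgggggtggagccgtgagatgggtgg
Ptgs2: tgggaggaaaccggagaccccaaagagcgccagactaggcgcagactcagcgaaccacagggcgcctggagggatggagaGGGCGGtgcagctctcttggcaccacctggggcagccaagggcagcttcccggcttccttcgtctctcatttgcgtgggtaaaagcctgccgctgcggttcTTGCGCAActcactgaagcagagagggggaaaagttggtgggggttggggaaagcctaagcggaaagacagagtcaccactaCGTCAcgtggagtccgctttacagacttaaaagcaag
The Ptgs1 window held 1 match, to AGAACA on the strand opposite the gene at position -204 from the start site, where -1 is the last base before it and 1 its first base. The Ptgs2 window held GGGCGG at position -170, the palindrome TTGCGCAA, a match to TTGCNNAA on both strands, at position -69 and TGACG, on the strand opposite the gene, at position 14. None of these matches overlap. Over 32851 windows of this length, 19% hold AGAACA, 35.7% GGGCGG, 10.8% TTGCNNAA and 20.8% TGACG. GC content was 50.7% for Ptgs1, with 6 CG pairs, and 59.3% for Ptgs2, with 16 CG pairs, where the median window has 52.7% and 7. A match describes the letters only, not binding.

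Arachidonic acid reaches the cyclooxygenases from phospholipases, which are in a list of 49 further pathway genes. All 49 had rows in the tables and 31 could be tested: 7 were called higher (22.6%) and 11 lower (35.5%), beside 41.6% and 17.7% of all genes, with a median log2 fold change of 0.028 beside 0.10. After median-of-ratios scaling 7 were called higher and 13 lower, beside 28.5% and 28.6% of all genes. Pla2g4a, the cytosolic phospholipase A2 that releases arachidonic acid in response to calcium, was at 2.95, 2.92 and 2.82 RPKM with DMSO and 6.81, 6.65 and 7.77 RPKM with 611. Its groups were well apart, and the mean rose 2.44-fold, from 2.896 ± 0.0664 to 7.08 ± 0.603 RPKM (log2 difference 1.05 ± 0.0656, limma adjusted p = 3.1e-06). Plaat3 (Pla2g16), the abundant phospholipase of adipocytes, went the other way, from 122, 127 and 124 RPKM to 86.9, 81.8 and 79.4 RPKM. It fell 1.504-fold (limma adjusted p = 6.3e-06). The ratio of Pla2g4a to Plaat3 within a library was 0.0228 to 0.0241 with DMSO and 0.0783 to 0.0979 with 611.

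Other genes that supply the substrate gave calls in each direction. Pla2g12a, a secreted-type phospholipase, fell 1.46-fold from 30.1 ± 0.591 to 20.7 ± 0.923 RPKM, and Pla2g6, the calcium-independent phospholipase, fell 1.25-fold from 25.2 ± 1.27 to 20.1 ± 0.910. Mgll, which splits monoacylglycerols and can thereby yield arachidonic acid, fell 1.45-fold from 170 ± 8.44 to 117 ± 10.6. Faah, which hydrolyses the arachidonoyl amide anandamide, rose 3.59-fold from 0.864 ± 0.189 to 3.10 ± 0.154 (limma adjusted p = 5.8e-06). Pla2g4b, Pla2g4c, Pla2g15, Pla2g3, Pla2g5 and Daglb did not pass the test. Pla2g15 was called lower after median-of-ratios scaling (log2 difference -0.19, limma adjusted p = 0.0191), and Pla2g4c higher with no filter (0.13, limma adjusted p = 0.0205). Pla2g2a, Pla2g2c, Pla2g2f and Pla2g12b, of the secreted phospholipase family, had values of 0 throughout.

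Prostaglandin E2 is made by unrelated enzymes. Ptges, the inducible microsomal synthase that often works beside cyclooxygenase 2, was at 0.374, 0.649 and 0.365 RPKM with DMSO and at 0.497, 0.666 and 0.389 with 611. The groups overlapped, and replicate 2 was the highest in each. The means were 0.462 ± 0.161 and 0.517 ± 0.139 RPKM, a log2 difference of 0.055 with a 95% interval from -0.16 to 0.27 (limma adjusted p = 0.647). Between 53 and 100 reads stood behind each value, and the gene overlaps a pseudogene and a long noncoding RNA in RefSeq.

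Ptges2, a membrane-associated synthase whose part in E2 formation in the body is debated, was at 25.6, 24.2 and 24.0 RPKM with DMSO and at 21.1, 17.2 and 18.8 with 611. Every 611 library was below every DMSO library. The mean fell 1.29-fold, from 24.6 ± 0.876 to 19.0 ± 1.95 RPKM (log2 difference -0.36 ± 0.0678, limma adjusted p = 0.00171; -0.50 after median-of-ratios scaling). The difference from the median of all genes was -0.46.

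Ptges3, known both as a cytosolic E synthase and as p23, a co-chaperone of HSP90, had the highest level of the 10 genes. It was at 50.02, 50.2 and 49.5 RPKM with DMSO and 49.8, 50.1 and 52.8 with 611. The groups overlapped, and the log2 difference was 0.028 with a 95% interval from -0.055 to 0.11 (limma adjusted p = 0.536). After median-of-ratios scaling the sign turned and the test was passed, at -0.12 (limma adjusted p = 0.0175), so its direction depends on the scaling. RefSeq lists a pseudogene copy, Ptges3-ps, that may share reads with it, which makes this level uncertain. Gstm2, a glutathione transferase to which E synthase activity has been ascribed, rose 1.81-fold from 23.4 ± 0.978 to 42.3 ± 1.17 RPKM. Near relatives of Gstm2 could share its reads.

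Prostacyclin is made by Ptgis. This gene was at 2.85, 3.41 and 2.54 RPKM with DMSO and at 6.44, 6.75 and 6.40 RPKM with 611. The 611 libraries lay close together and well above the DMSO libraries. The mean rose 2.23-fold, from 2.93 ± 0.440 to 6.53 ± 0.195 RPKM (log2 difference 0.94 ± 0.0818, limma adjusted p = 1.8e-05). After median-of-ratios scaling the log2 difference was 0.82. On the unscaled log2(RPKM + 1) values 4.19% of tested genes, Ptgis included, rose by at least as much. About 177 to 237 reads stood behind the DMSO values and 458 to 487 behind the 611 values. A long noncoding RNA of RefSeq, Gm52569, overlaps Ptgis. Ptgir, the prostacyclin receptor, which raises cAMP, was low, at 0.216, 0.143 and 0.151 RPKM with DMSO and 0.331, 0.451 and 0.579 with 611. It rose 2.67-fold (log2 difference 0.31 ± 0.0730, limma adjusted p = 0.00570), with no overlap between the groups.

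Prostaglandin D2 has 2 synthases. Ptgds, the lipocalin-type enzyme, was at 0.0639, 0 and 0.0312 RPKM with DMSO and at 0, 0.0603 and 0.182 with 611, which corresponds to between 0 and 6 reads. Only 611 replicate 3 was above the value of 3 reads, which is 0.0898 to 0.0952 RPKM for this transcript, and a difference was not detectable at this depth. Hpgds, the haematopoietic-type enzyme, fell 1.66-fold from 1.70 ± 0.134 to 1.03 ± 0.0892 RPKM (limma adjusted p = 6.4e-04). The ratio of Ptgis to Hpgds within a library was 1.83, 1.98 and 1.39 with DMSO and 6.19, 6.07 and 6.85 with 611. The leukocyte markers Ptprc, Itgam and Cd3e were at 0 in all 6 libraries, and the 7 leukocyte markers in the tables summed to 0.921 to 1.24 RPKM with DMSO and 1.46 to 2.53 with 611. Of the 2 that could be tested, Cd14, which made up most of that sum, rose 1.78-fold from 0.912 ± 0.186 to 1.63 ± 0.517 RPKM (limma adjusted p = 0.0185). Lyz2 was at 0.112 ± 0.0145 and 0.216 ± 0.0137 RPKM, without overlap, and did not pass the test (limma adjusted p = 0.0558). The part of these markers in the change of Hpgds was not tested.

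**Figure D2:**
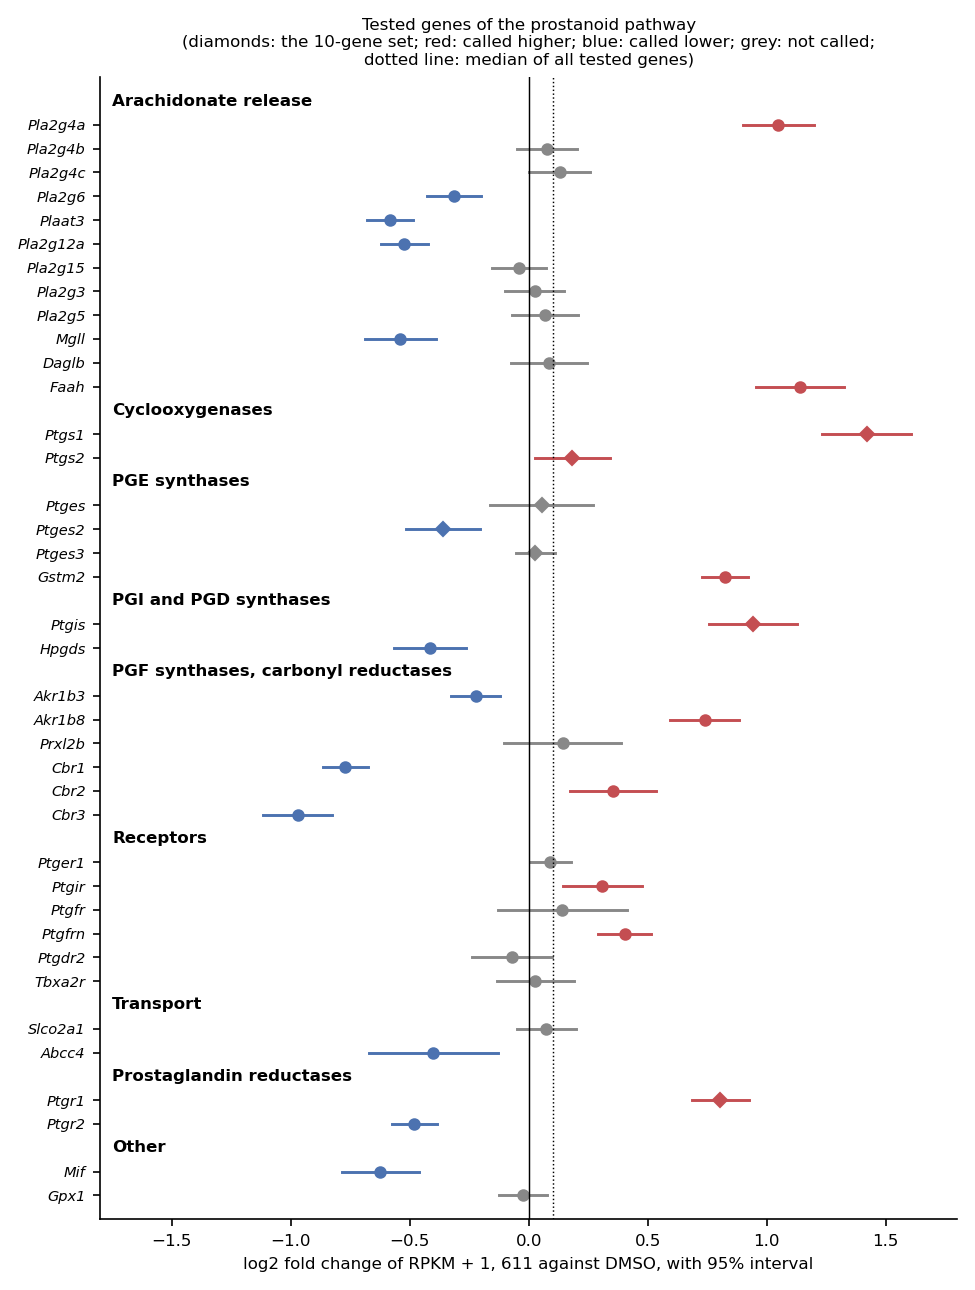
Log2 fold change (horizontal axis, RPKM + 1, 611 against DMSO) of the 38 tested genes of the pathway, with 95% intervals, grouped by step; diamonds are the 7 tested genes of the 10, red is called higher, blue lower and grey not called, and the dotted line is the median of all tested genes, 0.10. Pla2g4a, Faah and Ptgs1 stand furthest to the right and Cbr1 and Cbr3 furthest to the left.

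Synthases of F2 alpha and carbonyl reductases gave calls in both directions. Akr1b3, an aldose reductase that also forms F2 alpha, fell 1.17-fold from 57.7 ± 2.87 to 49.3 ± 1.46 RPKM (log2 difference -0.22, and -0.37 after median-of-ratios scaling), and its relative Akr1b8 rose 1.77-fold from 6.94 ± 0.239 to 12.3 ± 1.05. The carbonyl reductase genes Cbr1 and Cbr3, of which Cbr1 can convert E2 to F2 alpha, fell 1.72-fold and 1.97-fold, to 56.0 ± 2.10 and 77.3 ± 4.84 RPKM. Cbr2 rose 1.27-fold to 162 ± 4.32, with a log2 difference of 0.35 (limma adjusted p = 0.00447) that became 0.20 after median-of-ratios scaling (limma adjusted p = 0.0442). Prxl2b, listed under its older name Fam213b, did not pass the test. Tbxas1, the thromboxane synthase, was too low to test, at 0.0427 ± 0.00715 and 0.0616 ± 0.0244 RPKM, and it overlaps Hipk2.

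Ptger4 encodes EP4, an E2 receptor that raises cAMP. Its transcript with the higher mean was at 0.0731, 0.0357 and 0.0267 RPKM with DMSO and 0.0696, 0.0948 and 0.0694 with 611. The groups overlapped, and between 3 and 11 reads stood behind each value, where 3 reads are worth 0.0257 to 0.0273 RPKM. The other transcript ran from 0.0103 to 0.0895 RPKM. No difference was detectable at this depth. The E2 receptor genes Ptger2 and Ptger3 were too low to test, at 0.0270 ± 0.0138 and 0.0194 ± 0.0195 RPKM for Ptger2 and 0.0210 ± 0.0191 and 0.0323 ± 0.0140 for Ptger3.

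Ptger1, another E2 receptor gene, did not pass the test, and its level is uncertain because the strand setting of the counting is not known. Ptgfr, the F2 alpha receptor, was at 0.512 ± 0.210 and 0.667 ± 0.216 RPKM and did not pass the test. Ptgfrn, a membrane protein that binds this receptor, rose 1.34-fold to 19.5 ± 0.940 (log2 difference 0.40, and 0.26 after median-of-ratios scaling). Ptgdr2 and Tbxa2r did not pass the test, and Ptgdr had a value of 0 throughout.

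Outside these steps, Mif, a cytokine known to counter glucocorticoids, fell 1.55-fold from 155 ± 13.6 to 100.1 ± 6.88 RPKM (limma adjusted p = 8.8e-05), and Gpx1, a peroxidase that lowers the peroxide tone cyclooxygenases need, did not pass the test but was called lower after median-of-ratios scaling (log2 difference -0.17, limma adjusted p = 0.0142).

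Prostaglandins leave the cell by export and are cleared by uptake and oxidation. The importer Slco2a1 was at 0.1003 ± 0.0214 and 0.159 ± 0.0421 RPKM and did not pass the test. The exporter Abcc4 fell 1.41-fold from 5.57 ± 1.14 to 3.94 ± 0.441 RPKM (log2 difference -0.40, limma adjusted p = 0.0175). Without 611 replicate 3 the difference was -0.34 and the call ended (limma adjusted p = 0.0638), and without DMSO replicate 1 it was -0.26 (limma adjusted p = 0.0339). Hpgd, the 15-hydroxy dehydrogenase that starts the inactivation of E2, had 1 read in DMSO replicate 3 and 0 in the other 5 libraries. Its values were 0, 0 and 0.0146 RPKM with DMSO and 0 in all 3 libraries with 611. A count of 3 reads would be 0.0433 to 0.0459 RPKM, so both groups were below that floor and no fold is given. Floors and read numbers cover counting error only.

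Ptgr1 encodes prostaglandin reductase 1, which acts on 15-keto prostaglandins, the products of Hpgd, and also on leukotriene B4 and reactive alkenals. It was at 5.77, 6.23 and 5.84 RPKM with DMSO and at 10.6, 11.5 and 11.3 RPKM with 611. Both groups were tight and far apart. The mean rose 1.87-fold, from 5.95 ± 0.247 to 11.2 ± 0.467 RPKM (log2 difference 0.81 ± 0.0525, limma adjusted p = 3.9e-06; 0.67 after median-of-ratios scaling). About 472 to 521 reads stood behind the DMSO values and 912 to 996 behind the 611 values. Ptgr2, the reductase that shares the 15-keto substrates, fell 1.42-fold from 22.3 ± 0.635 to 15.7 ± 0.469 RPKM (limma adjusted p = 1.8e-05). The ratio of Ptgr1 to Ptgr2 within a library was 0.260, 0.288 and 0.255 with DMSO and 0.664, 0.722 and 0.749 with 611, so Ptgr2 remained the higher of the pair in all 6 libraries.

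The promoters of Ptgr1, which rose, and Ptges2, which fell, are given in the same form. They lie at chr4:58987029-58987328 on the minus strand and chr2:32395640-32395939 on the plus strand in GRCm38.p6, and each is printed in the direction of its gene.
Ptgr1: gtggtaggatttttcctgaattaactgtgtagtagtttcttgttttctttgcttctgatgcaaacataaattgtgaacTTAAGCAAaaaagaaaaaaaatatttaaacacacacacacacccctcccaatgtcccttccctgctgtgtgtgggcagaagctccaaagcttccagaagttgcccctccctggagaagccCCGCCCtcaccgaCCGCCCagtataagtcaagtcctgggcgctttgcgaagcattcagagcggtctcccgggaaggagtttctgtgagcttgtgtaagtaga
Ptges2: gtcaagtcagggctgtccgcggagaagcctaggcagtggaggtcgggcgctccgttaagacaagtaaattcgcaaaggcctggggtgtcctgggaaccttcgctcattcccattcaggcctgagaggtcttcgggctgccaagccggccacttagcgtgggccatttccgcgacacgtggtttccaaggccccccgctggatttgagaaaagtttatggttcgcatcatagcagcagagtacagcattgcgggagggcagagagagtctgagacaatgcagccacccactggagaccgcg
The Ptgr1 window held TTGCNNAA at position -172 and GGGCGG at positions -52 and -39, each on the strand opposite the gene. The Ptges2 window held none of the 6 motifs. GC content was 47.0% with 7 CG pairs for Ptgr1 and 58.7% with 18 CG pairs for Ptges2. RefSeq's table gave windows for 9 of the 10 genes. Of these 9, Hpgd alone held TATAAA, which 13.6% of all windows hold, and none held AGGTCA, which 16.3% hold.

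The order of the 10 genes by mean RPKM changed at 1 place among the 7 tested genes. With DMSO it was Ptges3, Ptges2, Ptgs1, Ptgr1, Ptgis, Ptges and Ptgs2, and with 611 Ptgs1 moved to the second place ahead of Ptges2. Ptgs1 was at 0.273 to 0.339 times the level of Ptges2 in the DMSO libraries. With 611 the ratio was 0.952, 1.34 and 1.07, so the 2 genes were level within their spread. The means of Ptges and Ptgs2 differed by less than 1 SD of Ptges in each group. Of the genes that rose, Ptgs1 gained on the others: the ratio of Ptgs1 to Ptgis was 2.41 to 2.58 with DMSO and 3.12 to 3.41 with 611, and that of Ptgs1 to Ptgr1 was 1.121 to 1.32 and 1.78 to 2.01.

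**Figure D3:**
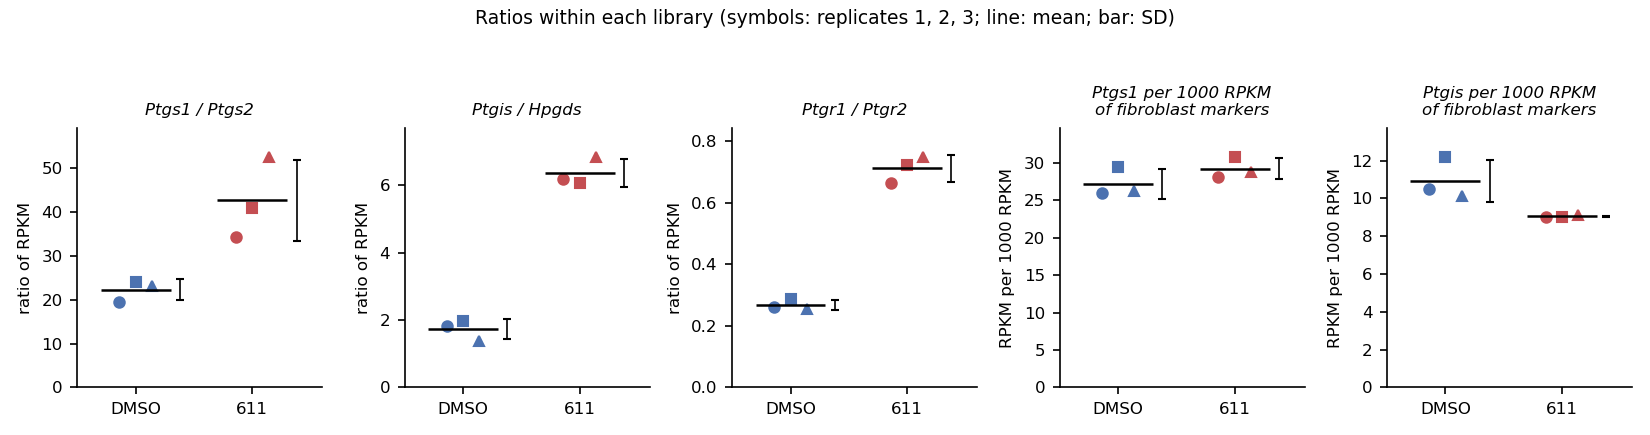
Ratios of RPKM formed within each library (vertical axes from 0), with DMSO in blue and 611 in red, the mean as a line and the SD as a bar. Ptgs1 over Ptgs2, Ptgis over Hpgds and Ptgr1 over Ptgr2 are higher in every 611 library. Ptgs1 per 1000 RPKM of fibroblast and progenitor markers overlaps between the groups. Ptgis per 1000 RPKM of the same markers is lower in every 611 library than in every DMSO library. Most of that marker sum is Col1a1 and Col1a2.

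Markers of less differentiated cells moved in the same libraries. The 8 fibroblast and progenitor markers summed to 250.4 to 279 RPKM with DMSO and 703 to 748 with 611. Of these 8, 7 were called higher and Dlk1 was not called, and none was at 0 in all libraries. Most of the sum was Col1a1, at a mean of 80.6 RPKM with DMSO and 206 with 611, and Col1a2, at 118 and 291. Ly6a was at 31.3 and 130 RPKM. Ratios to this sum therefore weigh these genes most. The 8 adipocyte markers summed to 26161 to 27364 RPKM with DMSO and 13470 to 14941 with 611, with 7 of 7 tested called lower. Most of this sum was Fabp4, at a mean of 21052 RPKM with DMSO and 10946 with 611. The falls of the 7 ran from 1.17-fold for Cebpa to 3.13-fold for Cfd. Set against the fibroblast sum, Ptgs1 was at 25.9, 29.4 and 26.2 per 1000 RPKM with DMSO and 28.1, 30.8 and 28.7 with 611, so the groups overlapped. Pla2g4a was at 10.5 to 11.3 and 8.89 to 11.1 per 1000 RPKM, which also overlapped. Ptgis was lower on this basis, at 10.1 to 12.2 and 9.02 to 9.10, and so were Ptgr1, at 21.2 to 23.3 and 14.9 to 16.1, and Ptgs2, at 1.14 to 1.32 and 0.546 to 0.820. The part of the markers' change in the results for these genes was not tested. In bulk RNA, fewer cells of a type and less RNA per cell cannot be told apart. The 5 endothelial markers summed to 0.0875 to 0.232 RPKM with DMSO and 0.313 to 0.323 with 611, with Cdh5 and Kdr at 0 in all 6 libraries. Tek, the only one tested, rose 2.98-fold from 0.0852 ± 0.0157 to 0.254 ± 0.0216 RPKM (limma adjusted p = 0.00747). With DMSO it was at 0.0719, 0.0811 and 0.102 RPKM. It met the minimum of 0.1 RPKM for testing through the 611 libraries, where it was high, which limits this call. The 4 neuron markers summed to 0.0965 to 0.224 RPKM and 0.763 to 1.23, with Syt1 at 0. Tubb3, the only one tested, rose 5.82-fold from 0.157 ± 0.0772 to 0.917 ± 0.242 (limma adjusted p = 2.1e-04). At 0.224, 0.175 and 0.0728 RPKM with DMSO, Tubb3 also needed the 611 libraries to meet the minimum.

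**Figure D4:**
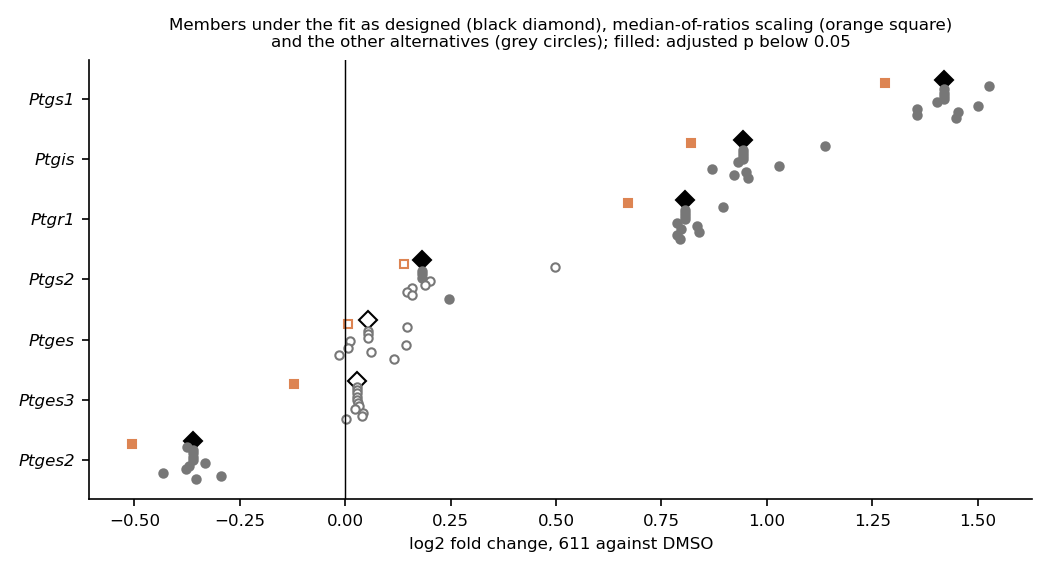
Log2 fold change (horizontal axis) of the 7 tested prostaglandin genes as designed (black diamond), after median-of-ratios scaling (orange square) and under the other alternatives (grey circles); filled symbols passed the threshold. Ptgs1, Ptgis, Ptgr1 and Ptges2 keep their side of 0 and stay filled throughout, Ptgs2 is open under most alternatives, and Ptges3 lies below 0 only after median-of-ratios scaling.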

How the data were processed

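The submitters' processing notes name the mouse build mm9, SAMtools, TopHat and TopHat2 (2.0.12). For each library the authors deposited a headerless table of RPKM values for 28430 RefSeq transcripts. Counting program, annotation version and strand setting: not given in the sources used here. Symbols came from RefSeq's GRCm38.p6 table, used for names and neighbours, and 27789 accessions matched. The transcript with the highest mean stood for a gene. Values were compared as log2(RPKM + 1) with limma 3.58.1 in R 4.3.3, with trend, group as the only term, genes with at least 0.1 RPKM in at least 3 libraries, and Benjamini-Hochberg adjustment over 13829 genes. A log2 fold change on this scale understates the change of low genes; folds are ratios of mean RPKM. The fitting code was tested on simulated data.

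Reads were recovered as whole multiples of the value of 1 read, at the reference's transcript length or at one found by search, which can meet whole numbers by chance. They serve only to show depth. Same-numbered libraries of the groups deviated alike over genes (r = 0.296, 0.298 and 0.177), a hint from the data. For different numbers r was -0.233 to -0.071, which is no separate contrast, because deviations from a group mean cancel within the group. A fit with the number as a block was therefore an alternative. Others were median-of-ratios scaling, a pseudocount of 0.1, no filter, a filter of 1 RPKM, the mean over transcripts, and leaving out each library. The members, the lists and the naming rule were chosen with earlier results of these data known. The rule named all 10 genes, any of the 49 further pathway genes, and of other lists up to 2 called members per direction with a mean of at least 1 RPKM. The level of Ptger1 is not reported here.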

Additional observations from a re-analysis of the deposited data

How the results depend on the processing

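The calls of Ptgs1, Ptgis, Ptgr1 and Ptges2 kept their direction and their side of the threshold under all 12 alternatives, with limma adjusted p-values from 7.1e-07 to 0.00779. The call of Ptgs2 was lost after median-of-ratios scaling (log2 fold change 0.14), with a pseudocount of 0.1 (0.50) and in 5 of the 6 fits that left out 1 library (0.15 to 0.20); without 611 replicate 3 it was kept (0.25). Median-of-ratios scaling turned Ptges3 to -0.12, and with it Pla2g4b (-0.012), Daglb (-0.030) and Ptger1 (-0.054), none of them called before; Pla2g15 (-0.19) and Gpx1 (-0.17) became called lower. With no filter, Pla2g4c and Ptger1 became called higher (limma adjusted p = 0.0205 and 0.0456). Without 611 replicate 2, Ptges was at -0.015 and Tbxa2r at -0.044; over all leave-one-out fits Ptges ran from -0.015 to 0.14, Tbxa2r from -0.044 to 0.073, Pla2g15 from -0.096 to 9.9e-05 and Gpx1 from -0.045 to 0.014. Scaling also moved the counts: 3959 of all genes were called lower in place of 2451, 2 of the prostaglandin genes lower in place of 1, and 3 HSP90 co-chaperones higher and 4 lower in place of 7 and 0. A filter of 1 RPKM left 3 cAMP-induced early genes called higher in place of 6, with fewer genes tested. With the replicate number as a block, 6169 of all genes were called higher and 2700 lower, the prostaglandin calls stayed at 4 and 1, Ptger1 was gained, and 1 HSP90 co-chaperone was called lower in place of 0; no other call among the prostaglandin and further pathway genes changed, and of the other lists Dpep1, named after its value was seen, was gained. The cause of each change was not tested. Ptgds, Ptger4 and Hpgd rest on at most 11 reads per library, which limits what can be said of them, and the stricter filter left Ptgs2 and Ptges untested.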

Other observations

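The neighbouring leukotriene and lipoxygenase arm of arachidonic acid metabolism had 22 genes in the tables, of which 11 could be tested. Of these 5 were called higher and 3 lower (45.5% and 27.3%, beside 41.6% and 17.7% of all genes), with a median log2 fold change of 0.13, beside 0.10 for all genes. After median-of-ratios scaling 4 were called higher and 4 lower, beside 28.5% and 28.6% of all genes. The 5 higher calls include Alox5ap, named after its values were seen. It was at 0.121, 0 and 0.147 RPKM with DMSO and needed the 611 libraries to meet the minimum for testing. Ephx2, the soluble epoxide hydrolase that breaks down epoxides of arachidonic acid, fell 2.65-fold from 111 ± 8.79 to 41.9 ± 5.17 RPKM (limma adjusted p = 3.3e-06), and Ltc4s, the leukotriene C4 synthase, fell 1.97-fold from 17.8 ± 3.46 to 9.03 ± 1.49 (limma adjusted p = 4.7e-04). Ephx1, the microsomal epoxide hydrolase, rose 1.49-fold from 63.97 ± 1.82 to 95.4 ± 5.90, and Lta4h, which forms leukotriene B4, rose 1.496-fold from 11.9 ± 0.726 to 17.9 ± 0.563. The lipoxygenase genes Alox12b and Alox15 had values of 0 throughout, and Alox5 was at 0.00296 ± 0.00512 and 0.00578 ± 0.0100 RPKM; these 3 are named after their values were seen.

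Early genes that cAMP induces in many cells, the kind of transcript that prostaglandin receptors can raise, had 15 tested members. Of these 6 were called higher and 6 lower (40.0% each, beside 41.6% and 17.7% of all genes), with a median log2 fold change of 0.063. After median-of-ratios scaling 5 were called higher and 6 lower, beside 28.5% and 28.6% of all genes. The 6 higher calls include Il6, named after its values were seen. It was at 0.0947, 0.0232 and 0.115 RPKM with DMSO and met the minimum for testing through the 611 libraries. Sik1, a salt-inducible kinase, rose 2.47-fold from 3.85 ± 0.258 to 9.52 ± 0.903 RPKM, and the phosphodiesterase gene Pde4d rose 1.57-fold from 3.32 ± 0.488 to 5.20 ± 1.08. Dusp1, a phosphatase of MAP kinases, fell 2.48-fold from 16.8 ± 1.604 to 6.76 ± 0.322, and the transcription factor gene Atf3 fell 1.74-fold from 6.08 ± 0.841 to 3.49 ± 0.526. Another list held 12 genes of HSP90 and its co-chaperones, without Ptges3 (p23) itself. By limma 7 were called higher and 0 lower, 0 also at an unadjusted p below 0.05 (58.3% higher, beside 41.6% of all genes higher and 17.7% lower). The median log2 fold change of the list was 0.14. Of these genes 3 were called higher and 4 lower after median-of-ratios scaling, beside 28.5% and 28.6% of all genes. Hsp90ab1 rose 1.45-fold from 375 ± 8.78 to 543 ± 15.4 RPKM and Nudc rose 1.26-fold to 39.2 ± 0.268, and both remained called higher after that scaling, where the log2 difference of Nudc went from 0.33 to 0.18.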
